A study of Mus musculus with 12 samples.

Results

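The collagen family was followed through mouse kidney tissue, kidney progenitor cells and kidney organoids. Its members were taken as all genes with a probe set of 1 gene symbol whose symbol is Col, a number, the letter a and a number, which gave 42 genes of 18193. Of the 42, 27 were bright enough to be tested and 15 were not. RNA was measured on 12 Affymetrix 3' expression arrays in 6 groups of 2. The groups were tissue of the kidney cortex, tissue of the kidney medulla, progenitor cells derived from either region, and organoids derived from either region. Per the labels the progenitors were kept on a layer of feeder fibroblasts and the organoids in 3D Matrigel, a gel of basement membrane proteins. The labels give no strain, age, sex or genetic change for any group, and no time in culture. They call the replicates biological without saying whether these were separate animals or separate cultures, so p-values measure only the spread between these samples.

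Collagens are extracellular proteins whose chains wind into a long helix, and each gene encodes 1 kind of chain. Fibrillar collagens (types I, III, V and XI among them) form the fibrils of connective tissue and are made largely by fibroblasts. Type IV collagen is the network of basement membranes: Col4a1 and Col4a2 chains occur in nearly all of them, while Col4a3, Col4a4 and Col4a5 chains build the network of the glomerular filter and of some distal tubules, whose loss causes Alport syndrome. Type VI forms beaded filaments in the interstitium, and the remaining classes decorate fibrils, anchor epithelium or span membranes.

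Signals are log2 units of the MAS5 algorithm. A fold or log2 difference was taken on the scale log2(signal + 15.2), which understates changes of dim genes, and it passed the test when its limma p adjusted over 12992 genes was under 0.05. A stage difference is the average over both regions, from 4 arrays against 4. A gene's main probe set is the one with the highest mean, and another is called bright where it passed the same brightness filter. Levels of different genes come from different probe sets and were not set against each other.

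As averages over both regions, 6 of 8 tested fibrillar genes and 3 of 3 tested type VI genes rose from tissue to progenitor cells. From progenitor cells to organoids 6 of the 8 and 3 of the 3 fell on that average. Taken by region, 6 of the 8 and 3 of the 3 fell in cortex, but 4 and 2 in medulla. Col4a3 and Col4a4, the glomerular type IV chains, fell at both steps. In organoids the regions parted: type VI chains were about 10-fold higher in medulla organoids than in cortex organoids, with log2 differences of 3.36 for Col6a1, 3.45 for Col6a2 and 3.33 for Col6a3. Of the 27 tested members, 11 rose and 10 fell from tissue to progenitor cells, against 36.9% and 35.8% of all tested genes. From progenitor cells to organoids 1 rose and 17 fell, against 28.0% and 44.3% of all genes. Between organoids and tissue 3 were higher and 20 lower in organoids, against 33.1% and 46.5%. The median log2 difference over all 42 members, tested or not, was -0.199 from tissue to progenitor cells, -0.759 from progenitor cells to organoids and -0.855 for organoids against tissue. Over all 18193 genes those medians were -0.0516, -0.228 and -0.298. These 3 comparisons share arrays with each other.

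**Figure D1:**
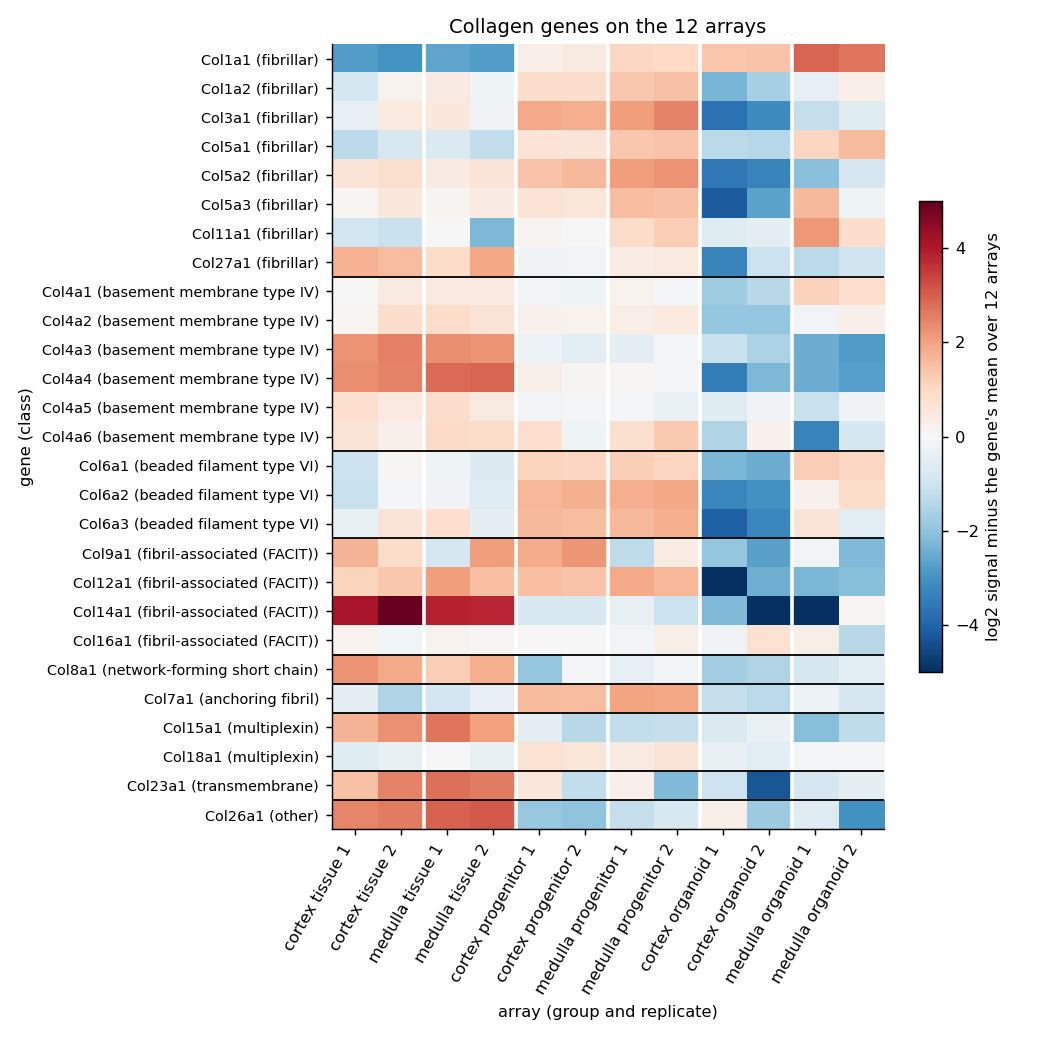
Signal of the 27 tested collagen genes on the 12 arrays, as the log2 signal minus the gene's mean over the 12 arrays, with genes in rows by class and arrays in columns by group and replicate. Colours end at 5 log2 units either way, and the type VI rows are lowest in the cortex organoid columns, while Col1a1 is highest in the medulla organoid columns (12.03 and 11.78).

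Samples differed in ways that touch these comparisons. The 11 measured fibroblast markers summed to 2358 to 4735 signal units in tissue, 8417 to 9968 in progenitor cells, 894 to 1215 in cortex organoids and 3979 to 5997 in medulla organoids. Of those markers 7 rose and 3 fell from tissue to progenitor cells (Fbln2 by 5.03 and S100a4 by 2.88, but Pdgfra by -1.72 and Pdgfrb by -1.72), 0 rose and 10 fell from progenitor cells to organoids, and 8 were higher in medulla organoids than in cortex organoids. Single markers read down to -1.38 log2 units (an endothelial marker in medulla organoids), far under the array medians. A sum thus does not show that each of its markers was detected. The 6 endothelial markers summed to 6178 to 11092 in tissue and 41 to 244 in the cultures, the 5 podocyte markers to 3173 to 6023 and 768 to 1677, and the 6 smooth muscle and pericyte markers to 5612 to 10078 and 453 to 5208. The 6 epithelial markers summed to 34852 to 49274 in tissue, 84449 to 104251 in progenitor cells and 35292 to 43349 in organoids, and tissue labelled medulla carried proximal tubule markers at 65025 to 95957, against 100205 to 104811 in cortex. The Gapdh probe sets differed between the 3' and 5' ends by -0.40 to 0.18 log2 units in tissue and progenitor cells, by 1.53 to 1.67 in cortex organoids and by 0.87 to 1.15 in medulla organoids. The beta-actin probe sets ran the other way, with 0.94 to 1.63 in tissue, 0.16 to 0.19 in progenitor cells and -0.0015 to 0.15 in organoids. Added poly-A control RNA had a median of 1.15 to 2.30 in organoids and 7.01 to 8.23 elsewhere. In such bulk samples fewer cells of a type and less RNA per cell cannot be told apart, and the part of these markers and controls in the collagen differences was not tested.

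**Figure D2:**
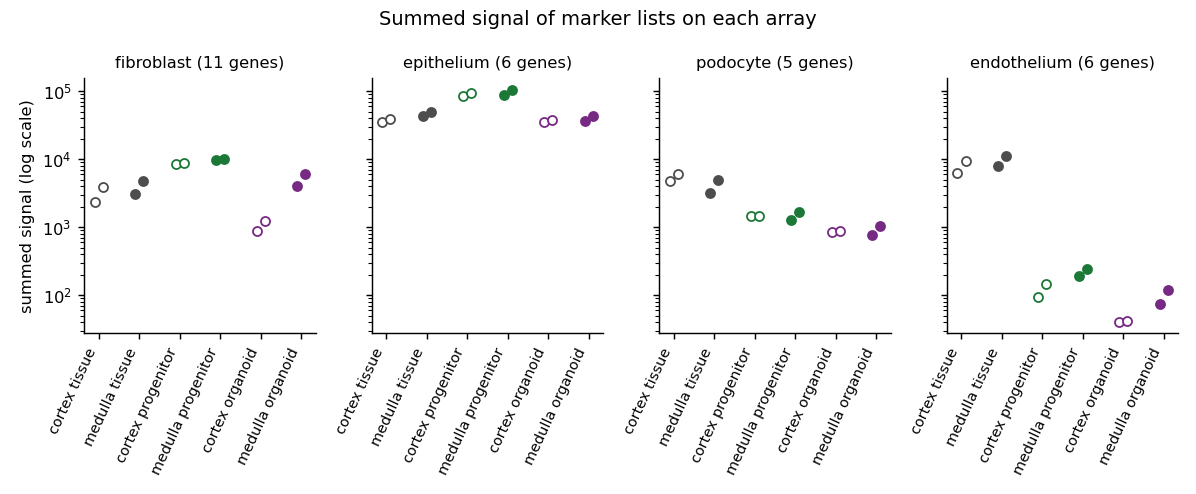
Summed signal (log scale) of the fibroblast, epithelium, podocyte and endothelium marker lists on each array, the lower array of a group drawn left of the higher. Fibroblast sums reach 9968 in medulla progenitor cells and lie at 894 to 1215 in cortex organoids.

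Col1a2 and Col3a1, a type I and the type III gene, both rose in progenitor cells and fell in organoids, and their promoters are shown to set the start regions of genes that moved together beside each other. RefSeq promoter windows (GRCm38.p6, 250 bases before to 50 bases after the annotated first base) were available for 33 of the 42 genes. Capitals mark the core TATAA of the TATA box, the letters CCAAT of the CCAAT box and the letters GGGCGG of the GC box on either strand, so that a match on the opposite strand is printed as its reverse complement. A match on both strands at 1 place counts as 2 overlapping matches. Col1a2 lies at chr6:4505368-4505667 on the plus strand and Col3a1 at chr1:45311288-45311587 on the plus strand.
Col1a2: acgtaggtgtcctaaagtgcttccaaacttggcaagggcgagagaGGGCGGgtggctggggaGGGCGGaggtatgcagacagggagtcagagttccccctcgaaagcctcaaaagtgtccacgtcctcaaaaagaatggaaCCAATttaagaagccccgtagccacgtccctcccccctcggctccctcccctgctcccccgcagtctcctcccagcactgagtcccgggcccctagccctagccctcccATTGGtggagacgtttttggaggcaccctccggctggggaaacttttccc
Col3a1: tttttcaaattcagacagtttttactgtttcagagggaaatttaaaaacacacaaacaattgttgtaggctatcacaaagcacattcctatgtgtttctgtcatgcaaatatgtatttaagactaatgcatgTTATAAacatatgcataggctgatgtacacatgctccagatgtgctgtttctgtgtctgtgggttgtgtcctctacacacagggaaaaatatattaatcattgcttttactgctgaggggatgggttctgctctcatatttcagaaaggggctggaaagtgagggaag
The Col1a2 window held 2 CCAAT and 2 GGGCGG matches and no TATAA, while the Col3a1 window held 2 overlapping TATAA matches and neither of the others. GGGCGG occurred in 22 of 36 collagen windows (61.1%) and in 35.7% of the windows of all genes. CCAAT occurred in 36.1% of collagen windows and 37.4% of all, and TATAA in 19.4% and 24.9%.

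Type I collagen is the main fibre of scar and bone, built from Col1a1 and Col1a2 chains. Col1a1 had log2 signals of 6.34 and 6.14 in cortex tissue, 6.50 and 6.32 in medulla tissue, 9.46 and 9.56 in cortex progenitor cells, 10.17 and 10.12 in medulla progenitor cells, 10.49 and 10.55 in cortex organoids and 12.03 and 11.78 in medulla organoids. The 3 stages did not overlap, and in the cultures medulla arrays lay above cortex arrays. Col1a1 rose by 3.28 ± 0.12 (log2 difference ± SE; 9.69-fold; adjusted p = 2.38e-10) from tissue to progenitor cells and by 1.37 ± 0.12 (adjusted p = 7.63e-07) from there to organoids, the 1 collagen gene that rose at the second step. A second, bright Col1a1 probe set also rose from tissue to progenitor cells, but from progenitor cells to organoids it gave -0.26 (adjusted p = 0.53), with arrays at 8.42 and 7.82 in cortex organoids and 9.47 and 10.49 in medulla organoids.

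Col1a2, the partner chain, had log2 signals of 10.01 and 11.06 in cortex tissue, 11.27 and 10.66 in medulla tissue, 11.77 and 11.76 in cortex progenitor cells, 12.21 and 12.33 in medulla progenitor cells, 8.56 and 9.19 in cortex organoids and 10.44 and 11.19 in medulla organoids. Every progenitor array was above every tissue and organoid array, while medulla organoids overlapped tissue. It rose by 1.26 ± 0.24 (adjusted p = 0.00044; 2.03 on another bright probe set) and then fell by 2.15 ± 0.24 (adjusted p = 5.82e-06), opposite in direction to Col1a1's main probe set. The change of Col1a1 minus that of Col1a2 from progenitor cells to organoids was 3.52 (SD 0.56 and 0.11 over 4 arrays a side; exact two-sided permutation test p = 0.0286, the smallest 4 against 4 can give; 0.0375 adjusted over 21 chain comparisons). Over the 6 pairings of the probe sets of the 2 genes this difference ran from 1.28 to 3.84, and arrays overlapped in 1 of them.

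Col3a1 encodes type III collagen, the fine reticular fibre of kidney interstitium. Its log2 signals were 9.63 and 10.54 in cortex tissue, 10.57 and 9.85 in medulla tissue, 11.94 and 11.85 in cortex progenitor cells, 12.14 and 12.52 in medulla progenitor cells, 6.32 and 6.86 in cortex organoids and 8.84 and 9.45 in medulla organoids. The stages did not overlap, with progenitor cells highest and organoids lowest. It rose by 1.95 ± 0.23 (3.86-fold; adjusted p = 7.33e-06) and then fell by 4.12 ± 0.23 (17.4-fold; adjusted p = 1.51e-08), the largest fall of the 27 tested members at that step.

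Type V chains sit inside type I fibrils and limit their diameter. Col5a1 read 7.11 and 7.62 in cortex tissue, 7.68 and 7.19 in medulla tissue, 9.09 and 9.05 in cortex progenitor cells, 9.77 and 9.82 in medulla progenitor cells, 7.07 and 6.97 in cortex organoids and 9.47 and 10.00 in medulla organoids. On this probe set cortex organoids were thus near tissue and medulla organoids near progenitor cells. The 2 other bright Col5a1 probe sets fell in medulla from progenitor cells to organoids, with differences of -2.29 and -2.55 (limma adjusted p = 0.0058 and 0.0024). Col5a2, whose gene neighbours Col3a1 on chromosome 1, read 9.57 and 9.73 in cortex tissue, 9.35 and 9.57 in medulla tissue, 10.37 and 10.56 in cortex progenitor cells, 11.02 and 11.20 in medulla progenitor cells, 5.37 and 5.59 in cortex organoids and 6.86 and 8.10 in medulla organoids. Its stages did not overlap. Col5a1 rose by 1.94 ± 0.18 and Col5a2 by 1.22 ± 0.21 (0.68 on its other bright probe set) from tissue to progenitor cells, and they then fell by 0.99 ± 0.18 and 4.04 ± 0.21. The 2 falls differed by 3.05 (exact permutation test p = 0.0286, adjusted 0.0375), and the rises by 0.73 with the same p. The other bright Col5a1 probe sets fell further from progenitor cells to organoids, with differences of -2.23 and -2.09, and over the 6 pairings of bright probe sets the difference between the falls ran from 1.25 to 3.05, with overlapping arrays in 2. Against tissue Col5a1 was 0.95 higher in organoids, but its other probe sets gave no such rise (-0.0128 for the brighter of them, adjusted p = 0.98).

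Col5a3 read 5.96 and 6.40 in cortex tissue, 6.02 and 6.26 in medulla tissue, 6.54 and 6.48 in cortex progenitor cells, 7.42 and 7.33 in medulla progenitor cells, 1.70 and 3.22 in cortex organoids and 7.49 and 5.67 in medulla organoids. Of the medulla organoid arrays 1 lay above every progenitor array and the other below every tissue array, and cortex organoids lay below all others. It fell by 1.50 ± 0.31 from progenitor cells to organoids (adjusted p = 0.00095). Its lower level in organoids than in tissue (-0.82) did not pass without cortex tissue replicate 2 (-0.73, adjusted p = 0.090), medulla tissue replicate 2 (-0.77), cortex organoid replicate 1 (-0.72) or medulla organoid replicate 2 (-0.43).

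The other fibrillar genes are best known from cartilage. Col27a1 read 10.11 and 9.93 in cortex tissue, 9.30 and 10.33 in medulla tissue, 8.19 and 8.26 in cortex progenitor cells, 8.76 and 8.87 in medulla progenitor cells, 5.09 and 7.30 in cortex organoids and 7.05 and 7.38 in medulla organoids. It was the fibrillar gene that fell at both steps, by 1.36 ± 0.34 and 1.64 ± 0.34, with no overlap of stages, and another bright probe set fell by 0.86 and 0.52. Col11a1 was dim, from 2.91 to 7.32, and passed the brightness filter by 0.12 log2 units. It rose by 1.05 ± 0.31 from tissue to progenitor cells (adjusted p = 0.0095) and changed by 0.0015 ± 0.31 from there to organoids. Only medulla progenitor cells (6.06 and 6.35) took it past the filter, so its rise into that stage carries little weight. Of the 8 tested fibrillar genes, 6 (Col11a1 included) rose and 1 fell at the first step, and 1 rose and 6 fell at the second.

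**Figure D3:**
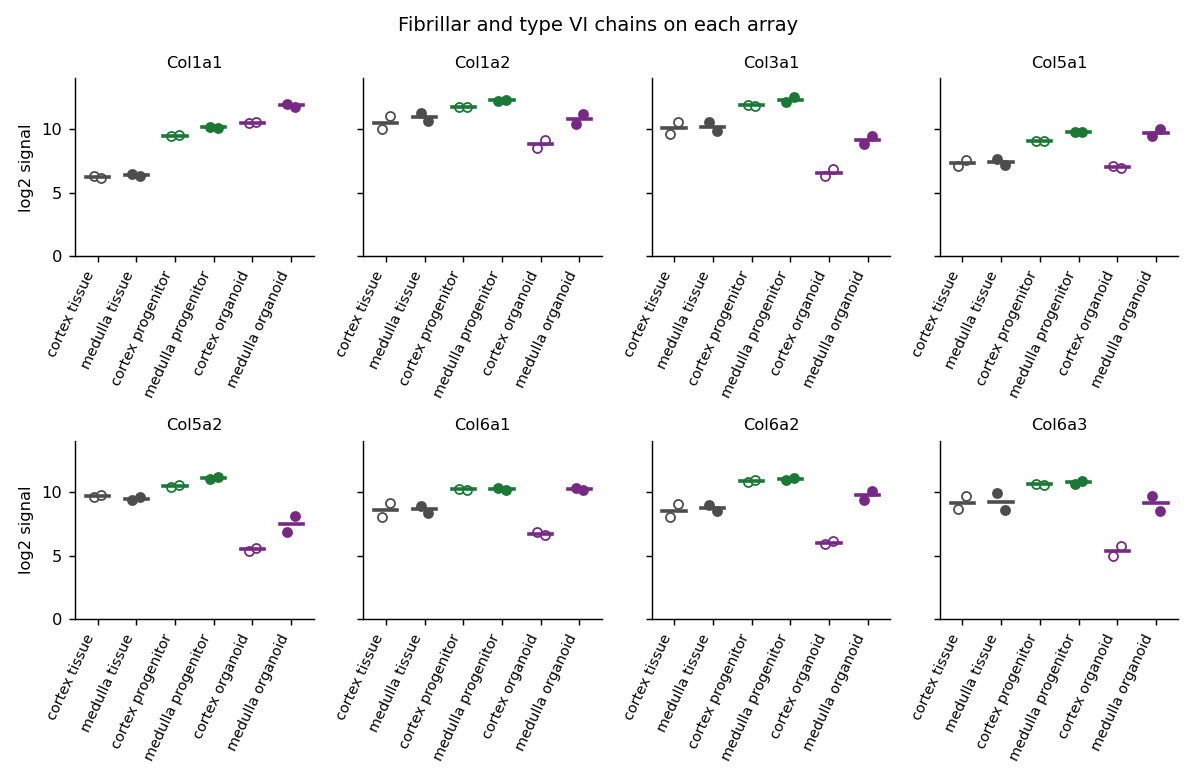
Log2 signal of 8 fibrillar and type VI genes in each group, with cortex as open and medulla as filled circles, 1 circle per array, replicate 1 left of replicate 2, and a line at the group mean. Col1a1 is highest in organoids (10.49 to 12.03), whereas Col3a1 is lowest there (6.32 to 9.45), and Col6a1 in medulla organoids (10.35 and 10.15) lies at its progenitor level.

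Type VI collagen is an assembly of Col6a1, Col6a2 and a further chain such as Col6a3, and the genes of the first 2 are neighbours on chromosome 10. Col6a1 read 8.04 and 9.15 in cortex tissue, 8.88 and 8.37 in medulla tissue, 10.21 and 10.18 in cortex progenitor cells, 10.28 and 10.18 in medulla progenitor cells, 6.82 and 6.60 in cortex organoids and 10.35 and 10.15 in medulla organoids. Progenitor cells and medulla organoids shared 1 range, above tissue, and cortex organoids lay below tissue. Col6a2 read 8.03 and 9.05 in cortex tissue, 8.99 and 8.50 in medulla tissue, 10.79 and 10.92 in cortex progenitor cells, 10.97 and 11.09 in medulla progenitor cells, 5.87 and 6.11 in cortex organoids and 9.37 and 10.08 in medulla organoids. Its progenitor arrays were above all others and its cortex organoid arrays below all others. Col6a3 read 8.66 and 9.68 in cortex tissue, 9.88 and 8.55 in medulla tissue, 10.65 and 10.58 in cortex progenitor cells, 10.64 and 10.85 in medulla progenitor cells, 4.94 and 5.76 in cortex organoids and 9.69 and 8.52 in medulla organoids. Here medulla organoids overlapped tissue.

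From tissue to progenitor cells Col6a1 rose by 1.57 ± 0.21, Col6a2 by 2.26 ± 0.22 (1.48 on its other bright probe set) and Col6a3 by 1.46 ± 0.33 (adjusted p from 1.60e-06 to 0.0015). From progenitor cells to organoids they fell by 1.65 ± 0.21, 2.93 ± 0.22 and 3.21 ± 0.33. No difference between the changes of Col6a1 and Col6a3 was detected at the first step (difference 0.11, SD 0.14 and 0.33 over 4 arrays a side; exact permutation test p = 0.60, adjusted 0.63). At the second step Col6a1 fell by less than Col6a2 (difference 1.28) and Col6a3 (1.56), each with an exact permutation p of 0.0286, adjusted 0.0375. With the other bright Col6a2 probe set the difference from Col6a2 was 0.73, and arrays overlapped. Col6a2 was 0.67 lower in organoids than in tissue, a call lost without cortex tissue replicate 2 (-0.43, adjusted p = 0.075) or medulla tissue replicate 1 (-0.55, adjusted p = 0.064). The genes Col6a4 and Col6a5 were among the members too dim to test.

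Col4a1 and Col4a2 are read in opposite directions from starts 21 bases apart on chromosome 8. Their windows, Col4a1 at chr8:11312777-11313076 on the minus strand and Col4a2 at chr8:11312555-11312854 on the plus strand, share 78 bases, and they are shown because these partner chains start from 1 shared region.
Col4a1: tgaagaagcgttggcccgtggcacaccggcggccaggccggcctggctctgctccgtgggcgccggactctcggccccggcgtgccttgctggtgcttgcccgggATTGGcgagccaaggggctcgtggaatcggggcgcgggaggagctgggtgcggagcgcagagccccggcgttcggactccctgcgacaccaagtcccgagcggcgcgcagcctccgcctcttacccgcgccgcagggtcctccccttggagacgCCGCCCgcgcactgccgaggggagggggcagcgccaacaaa
Col4a2: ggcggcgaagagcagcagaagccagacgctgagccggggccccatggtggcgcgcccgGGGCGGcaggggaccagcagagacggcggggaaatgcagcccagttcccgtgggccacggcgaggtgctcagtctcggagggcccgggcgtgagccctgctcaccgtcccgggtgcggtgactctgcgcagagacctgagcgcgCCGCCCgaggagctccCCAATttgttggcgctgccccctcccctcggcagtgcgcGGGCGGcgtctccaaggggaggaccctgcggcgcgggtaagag
The Col4a1 window held 1 CCAAT and 1 GGGCGG match, the Col4a2 window 1 and 3, and neither held TATAA.

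Col4a1 read 11.42 and 11.87 in cortex tissue, 11.91 and 11.88 in medulla tissue, 11.26 and 11.21 in cortex progenitor cells, 11.57 and 11.34 in medulla progenitor cells, 9.64 and 10.03 in cortex organoids and 12.55 and 12.24 in medulla organoids. Its highest and lowest arrays were both organoids, of opposite regions. Col4a2 read 10.26 and 11.04 in cortex tissue, 11.07 and 10.80 in medulla tissue, 10.36 and 10.34 in cortex progenitor cells, 10.48 and 10.63 in medulla progenitor cells, 8.23 and 8.24 in cortex organoids and 10.01 and 10.40 in medulla organoids. Cortex organoids were again lowest, but medulla organoids overlapped cortex tissue and progenitor cells.

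Col4a1 fell by 0.42 ± 0.13 (adjusted p = 0.0099; 0.66 on its other bright probe set), with overlapping arrays, and did not pass without cortex tissue replicate 2 (-0.31, adjusted p = 0.054). Col4a2 gave -0.34 ± 0.16 (adjusted p = 0.073), and the difference between the 2 changes was -0.08 (exact permutation test p = 0.54, adjusted 0.60). From progenitor cells to organoids Col4a2 fell by 1.20 ± 0.16 (adjusted p = 2.65e-05) while Col4a1 gave -0.22 ± 0.13 (adjusted p = 0.13). The 2 chains of the shared start thus differed by 0.98 at that step (SD 0.49 and 0.15, exact permutation test p = 0.0286, adjusted 0.0375).

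Col4a3 and Col4a4, neighbours on chromosome 1, encode chains of the mature glomerular network. Col4a3 read 10.48 and 10.73 in cortex tissue, 10.56 and 10.48 in medulla tissue, 7.94 and 7.68 in cortex progenitor cells, 7.73 and 8.16 in medulla progenitor cells, 7.12 and 6.62 in cortex organoids and 5.72 and 5.39 in medulla organoids. Col4a4 read 11.37 and 11.53 in cortex tissue, 11.89 and 11.99 in medulla tissue, 9.37 and 9.19 in cortex progenitor cells, 9.13 and 8.97 in medulla progenitor cells, 5.59 and 6.83 in cortex organoids and 6.59 and 6.29 in medulla organoids. For both genes tissue was highest and organoids lowest, with no overlap between stages.

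Col4a3 fell by 2.61 ± 0.18 (6.09-fold; adjusted p = 5.04e-08) and Col4a4 by 2.50 ± 0.19 (5.65-fold; adjusted p = 1.91e-07) from tissue to progenitor cells, a difference of -0.11 between them (exact permutation test p = 0.80, adjusted 0.80). On these probe sets they fell by a further 1.47 ± 0.18 and 2.62 ± 0.19 in organoids, which differed by 1.15 (exact permutation test p = 0.0286, adjusted 0.0375). Against tissue, organoids held 16.8-fold less Col4a3 and 34.6-fold less Col4a4 signal. The order of the 2 chains depended on the probe set: another bright Col4a3 probe set fell by 3.04 ± 0.17 from progenitor cells to organoids (adjusted p = 1.54e-08) and was 62.4-fold lower in organoids than in tissue. The other bright Col4a4 probe sets fell by 1.55 ± 0.22 and 3.33 ± 0.14 at that step and were 12.4-fold and 55.5-fold lower in organoids than in tissue. Over the 6 pairings of bright probe sets the chain difference at that step ran from -1.49 to 1.86, and arrays overlapped in 3 of them. Both genes fell at both steps on each of their bright probe sets. All 5 measured podocyte markers also fell from tissue to progenitor cells, beside 35.8% of all tested genes. So did all 6 proximal tubule, 4 loop and distal tubule, 4 collecting duct and 6 endothelial markers. Of the epithelial markers 5 of 6 rose, and of the fibroblast markers 7 of 11. The part of any of these markers in the Col4a3 and Col4a4 falls was not tested.

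Col4a5, the third chain of that network, read 11.12 and 10.79 in cortex tissue, 11.14 and 10.73 in medulla tissue, 10.14 and 10.22 in cortex progenitor cells, 10.18 and 9.95 in medulla progenitor cells, 9.68 and 10.12 in cortex organoids and 9.18 and 10.10 in medulla organoids. Tissue was above all cultured arrays, and progenitor cells and organoids overlapped. It fell by 0.82 ± 0.19 at the first step (adjusted p = 0.002), 1.79 less than Col4a3 (exact permutation test p = 0.0286, adjusted 0.0375), and gave -0.35 ± 0.19 at the second (adjusted p = 0.12). The other bright Col4a5 probe set passed at the opposite step, with -0.09 at the first (adjusted p = 0.65) and -0.49 at the second (adjusted p = 0.017). On the main probe sets the Col4a3 change minus the Col4a5 change at the second step, -1.12, did not pass (exact permutation test p = 0.0571, adjusted 0.0667). Over the 4 pairings of bright probe sets this difference ran from -2.70 to -0.98, and arrays overlapped in 1 of them. Col4a6, whose gene stands head to head with Col4a5 on chromosome X with first bases 1343 apart, was dim. It read 6.05 and 5.69 in cortex tissue, 6.40 and 6.33 in medulla tissue, 6.26 and 5.21 in cortex progenitor cells, 6.21 and 6.74 in medulla progenitor cells, 3.92 and 5.62 in cortex organoids and 2.08 and 4.56 in medulla organoids. Organoids lay below tissue, and progenitor cells overlapped both. Col4a6 changed by 0.0043 ± 0.33 at the first step and fell by 1.29 ± 0.33 at the second (adjusted p = 0.0038). Of the 6 type IV genes, 0 rose and 4 fell at each step, though not the same 4: on their main probe sets Col4a1 and Col4a5 passed at the first step and Col4a2 and Col4a6 at the second. Against tissue all 6 were lower in organoids as averages over both regions. In medulla organoids, however, Col4a1 (12.55 and 12.24) lay above every tissue array (at most 11.91).

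**Figure D4:**
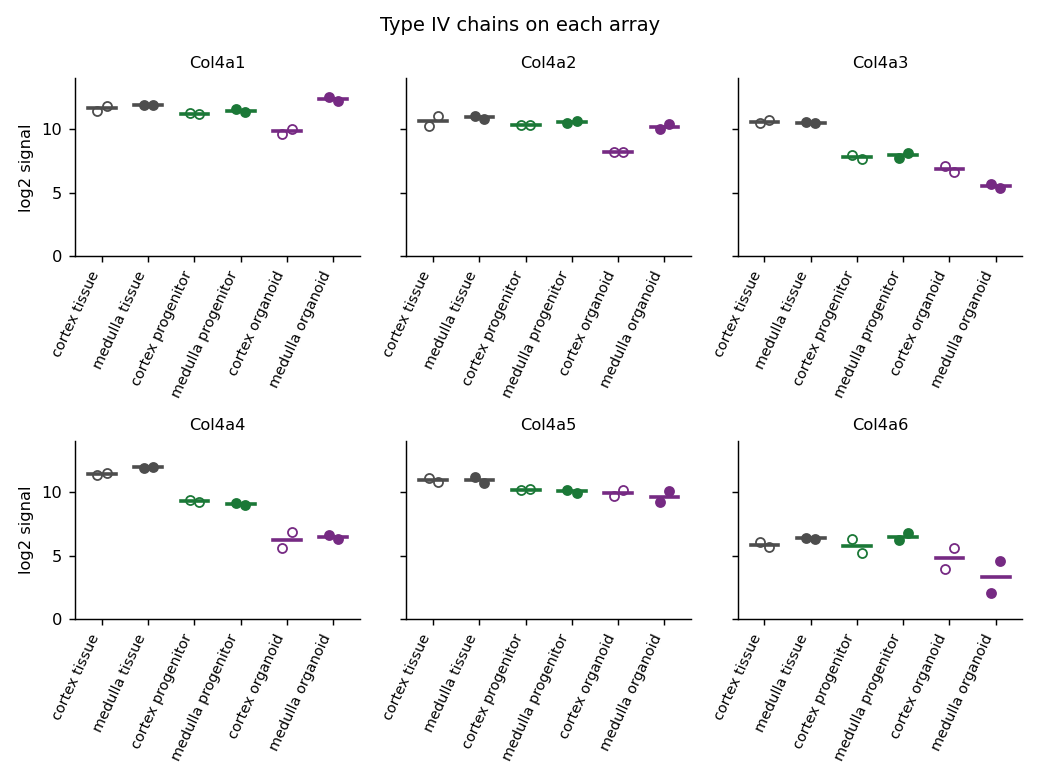
Log2 signal of the 6 type IV genes in each group, with cortex as open and medulla as filled circles, 1 circle per array, replicate 1 left of replicate 2, and a line at the group mean. Col4a3 and Col4a4 step down from tissue (10.48 to 11.99) to organoids (5.39 to 7.12), while Col4a1 and Col4a2 are lowest in cortex organoids (8.23 to 10.03).

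Multiplexins lie where basement membranes meet the interstitium. Col18a1, whose protein gives rise to the fragment endostatin, read 10.42 and 10.64 in cortex tissue, 11.01 and 10.67 in medulla tissue, 11.81 and 11.62 in cortex progenitor cells, 11.50 and 11.68 in medulla progenitor cells, 10.68 and 10.46 in cortex organoids and 10.95 and 10.95 in medulla organoids. Progenitor cells were highest, and tissue and organoids overlapped. It rose by 0.96 ± 0.11 (adjusted p = 5.22e-06) and fell by 0.89 ± 0.11 (adjusted p = 1.22e-05; 0.53 on another bright probe set, which was also 0.39 higher in organoids than in tissue, adjusted p = 0.0029). Col15a1 read 7.63 and 8.19 in cortex tissue, 8.59 and 7.95 in medulla tissue, 5.44 and 4.54 in cortex progenitor cells, 4.70 and 4.75 in medulla progenitor cells, 5.19 and 5.61 in cortex organoids and 3.79 and 4.63 in medulla organoids. It was high in tissue only, fell by 2.70 ± 0.26 in progenitor cells (adjusted p = 1.29e-06) and changed by -0.0080 ± 0.26 thereafter.

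Col7a1 builds the fibrils that anchor stratified epithelium to its base. It read 6.85 and 5.79 in cortex tissue, 6.36 and 6.91 in medulla tissue, 8.89 and 8.85 in cortex progenitor cells, 9.26 and 9.25 in medulla progenitor cells, 6.10 and 5.95 in cortex organoids and 7.00 and 6.48 in medulla organoids. All 4 progenitor arrays stood above the other 8. It rose by 2.39 ± 0.23 (5.24-fold; adjusted p = 1.55e-06), fell by 2.48 ± 0.23 (adjusted p = 1.43e-06), and organoids against tissue gave -0.09 ± 0.23.

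Col14a1 and Col12a1 encode fibril-associated chains, which sit on the surface of collagen fibrils. Col14a1 read 9.25 and 10.31 in cortex tissue, 8.96 and 8.94 in medulla tissue, 4.36 and 4.34 in cortex progenitor cells, 4.75 and 4.04 in medulla progenitor cells, 2.91 and -0.53 in cortex organoids and -1.22 and 5.23 in medulla organoids. It was high in tissue only, and its fall of 4.23 ± 0.37 (18.7-fold; adjusted p = 5.60e-07) was the largest of any tested member from tissue to progenitor cells. Col12a1 read 7.33 and 7.56 in cortex tissue, 8.30 and 7.73 in medulla tissue, 7.70 and 7.64 in cortex progenitor cells, 8.12 and 7.86 in medulla progenitor cells, 0.56 and 3.78 in cortex organoids and 3.94 and 4.07 in medulla organoids. Tissue and progenitor cells overlapped and organoids lay below them, with a change of 0.10 ± 0.24 and then a fall of 3.22 ± 0.24 (9.30-fold; adjusted p = 1.77e-07). Another bright probe set fell by 1.95 ± 0.26.

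The other fibril-associated genes changed less. Col9a1 passed the brightness filter by 0.0111 log2 units, ran from 1.36 to 6.30, and fell by 1.22 ± 0.38 in organoids against progenitor cells (adjusted p = 0.013), a call lost without medulla progenitor replicate 2 (-1.03, adjusted p = 0.053). Its -1.29 against tissue became -0.84 without medulla tissue replicate 2. Only cortex progenitor cells (5.92 and 6.30) took Col9a1 past the filter, so its fall from progenitor cells carries little weight. Col16a1 ran from 6.32 to 8.43 and passed in none of the 10 comparisons.

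Of the remaining classes, 3 tested genes were high in tissue alone. Col26a1 read 6.38 and 6.50 in cortex tissue, 6.87 and 6.99 in medulla tissue, 2.01 and 1.91 in cortex progenitor cells, 2.74 and 3.13 in medulla progenitor cells, 4.22 and 2.09 in cortex organoids and 3.29 and 0.91 in medulla organoids. It fell by 2.50 ± 0.26 from tissue to progenitor cells, and Col8a1, a short chain of vessel walls, fell by 1.96 ± 0.28 and the transmembrane Col23a1 by 1.93 ± 0.33. None of the 3 passed from progenitor cells to organoids, although 2 other probe sets of Col23a1 did, at 0.97 and 0.81 (adjusted p = 0.0025 and 0.028), and 1 of Col8a1, at -1.11 (adjusted p = 0.0080). The 15 untested genes were Col2a1, Col6a4, Col6a5, Col8a2, Col9a2, Col9a3, Col10a1, Col11a2, Col13a1, Col17a1, Col19a1, Col20a1, Col22a1, Col24a1 and Col25a1. Their highest single values ran from 4.51 for Col9a2 to 6.25 for Col22a1, while array medians ran from 5.86 to 6.53. The genes just outside the filter, Col11a2 and Col22a1, missed it by 0.35 and 0.37 log2 units.

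Whether collagen signals differed by region was asked within each stage. In tissue no member passed limma's test for medulla minus cortex, while 0.3% of all genes passed as higher and 0.0077% as lower in medulla. In progenitor cells 0 of 27 passed, while 0.277% of all genes passed as higher and 0.0385% as lower. An unadjusted p under 0.05 was found for 0 of 27 in tissue and for 3 in progenitor cells (Col1a1 0.63, Col5a1 0.71 and Col9a1 -1.56). Col9a1 passed the brightness filter only through cortex progenitor cells, so its value here carries little weight. The share of all genes at that unadjusted threshold was not taken. In organoids 12 members were higher and 1 was lower in medulla, against 7.95% and 10.0% of all genes. The median over all 42 members was 0.119 in tissue, 0.177 in progenitor cells and 0.461 in organoids, beside 0.0018, 0.0079 and 0.0371 over all genes.

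The 12 genes higher in medulla organoids were the 3 tested type VI genes, 7 of 8 fibrillar genes, Col4a1 and Col4a2. Arrays of the regions did not overlap for any of them. With 2 arrays a side this adds little to the call, and the share of all genes without overlap was not taken. Col6a2 was 10.9-fold higher (3.45 ± 0.31, adjusted p = 7.3e-05), Col6a1 10.3-fold (3.36 ± 0.29), Col6a3 10.1-fold (3.33 ± 0.46), Col5a1 5.96-fold (2.58 ± 0.26) and Col4a1 5.82-fold (2.54 ± 0.18, adjusted p = 2.2e-05). Col5a3 (2.42), Col3a1 (2.38), Col1a2 (1.91), Col4a2 (1.91), Col5a2 (1.70), Col11a1 (1.58) and Col1a1 (1.37) followed. In a fit of the organoid arrays alone 9 genes were higher and 0 lower, and Col5a3 (adjusted p = 0.096), Col5a2 (0.16) and Col11a1 (0.17) did not pass. The Col5a2 difference became 1.13 without medulla organoid replicate 2 and 1.09 on its other bright probe set, and that of Col11a1 did not pass without cortex organoid replicate 1 (1.54, adjusted p = 0.12), cortex organoid replicate 2 (1.63) or medulla organoid replicate 1 (1.02). For Col5a1, the 2 other probe sets did not pass (adjusted p = 0.88 and 0.40), nor did another bright probe set of Col3a1 (0.55, adjusted p = 0.45). Col27a1, the tested fibrillar gene outside the 7, gave 0.83 on its main probe set. Its other bright probe set did pass as higher in medulla organoids (1.48, adjusted p = 0.0072).

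The 1 gene lower in medulla organoids was Col4a3 (-1.09 ± 0.25, adjusted p = 0.012), a call lost without cortex organoid replicate 1 (-0.87, adjusted p = 0.083) and in a fit of the organoid arrays alone (adjusted p = 0.25). The other bright Col4a3 probe set gave -0.0435 (adjusted p = 0.93). Its neighbour Col4a4 gave 0.17 ± 0.28, but another bright probe set of Col4a4 was lower by -1.67 (adjusted p = 0.00035). Of the 11 measured fibroblast markers 8 were likewise higher in medulla organoids and 0 lower, and of the 6 epithelial markers 0 passed. The part of the fibroblast markers in the collagen difference was not tested.

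The step from progenitor cells to organoids was also taken region by region, with 2 arrays on each side. In cortex 1 member rose and 17 fell, against 24.2% and 37.5% of all genes. In medulla 2 rose and 12 fell, against 23.7% and 38.5%. Median differences over the 42 members were -0.843 in cortex and -0.327 in medulla, beside -0.247 and -0.219 over all genes.

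In cortex Col3a1 fell by 5.10 ± 0.32 (34.2-fold), Col6a3 by 4.81 ± 0.46, Col5a2 by 4.58 ± 0.30 and Col6a2 by 4.56 ± 0.31, and Col6a1 fell by 3.31 ± 0.29. In medulla Col5a2 fell by 3.51 ± 0.30, Col3a1 by 3.15 ± 0.32 and Col12a1 by 3.11 ± 0.34, while Col6a1 changed by 0.01 ± 0.29. Col4a1 fell by 1.38 ± 0.18 in cortex (adjusted p = 3.7e-05) and rose by 0.94 ± 0.18 in medulla (adjusted p = 0.00074). For Col12a1 (-3.32 and -3.11), Col7a1 (-2.59 and -2.36) and Col4a4 (-2.81 and -2.42) the direct test of the difference between cortex and medulla, described next, did not pass. On another bright Col4a4 probe set that test did pass, at -1.90 (adjusted p = 0.0048), with group means of 8.93 and 6.35 in cortex progenitor cells and organoids and 9.17 and 3.92 in medulla. In medulla the fall of Col6a3 (-1.61) did not pass without medulla progenitor replicate 2 (-1.51) or medulla organoid replicate 2 (-1.04), and that of Col27a1 (-1.51) not without medulla progenitor replicate 1 (-1.56), medulla progenitor replicate 2 (-1.46) or medulla organoid replicate 1 (-1.35). In cortex Col27a1 gave -1.77, with -0.87 (not passing) without cortex organoid replicate 1 and -2.68 without cortex organoid replicate 2. On its other bright probe set Col27a1 gave 0.11 in medulla (adjusted p = 0.78) and -1.15 in cortex (adjusted p = 0.0065). The cortex fall of Col4a3 (-0.86) did not pass without cortex progenitor replicate 1 (-0.74) or cortex organoid replicate 2 (-0.64).

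**Figure D5:**
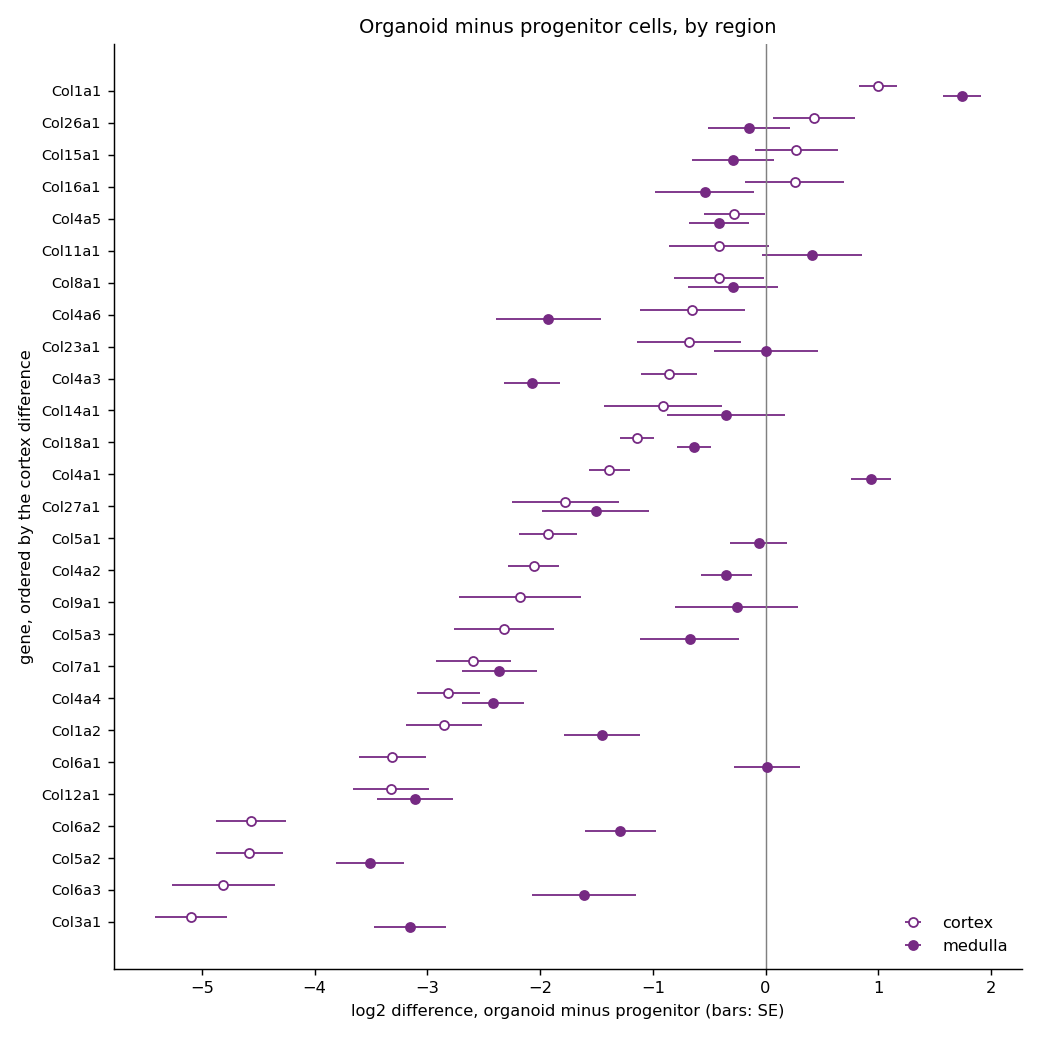
Log2 difference of organoids minus progenitor cells for the 27 tested genes, in cortex (open) and medulla (filled), with bars of 1 SE from the limma fit. Col6a1 stands at -3.31 in cortex and 0.01 in medulla, and Col12a1 at -3.32 and -3.11.

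The difference between the regional steps was tested directly. Unadjusted p was under 0.05 for 14 members, a threshold at which the share of all genes was not taken. At the adjusted threshold 7 members passed on the main probe sets of all arrays, against 4.09% of all genes (changed either way). All 7 had the more positive step in medulla. They were Col6a1 (3.33 ± 0.42, adjusted p = 0.0029), Col6a2 (3.28 ± 0.44, adjusted p = 0.0033), Col6a3 (3.20), Col4a1 (2.32 ± 0.25, adjusted p = 0.0017), Col3a1 (1.94), Col5a1 (1.87) and Col4a2 (1.71). Col4a1, Col6a1 and Col6a2 passed in all 8 fits that left out 1 array of the cultures, and the other 4 in 2 of the 8. The count was 3 without any 1 of the cortex progenitor, medulla progenitor or cortex organoid replicates, 11 without medulla organoid replicate 1 (9 positive, 2 negative) and 10 without medulla organoid replicate 2 (9 positive, 1 negative). Those with the more negative step in medulla were Col4a3 in both fits (-1.34 and -1.09) and Col16a1 in the first (-1.55). The 2 other probe sets of Col5a1 gave -0.12 and -0.92 and another bright Col3a1 set 0.24, none passing, while another bright Col1a2 set passed at 1.85 (adjusted p = 0.017). For the step from tissue to progenitor cells the same test passed for 0 of 27 members with limma, against 0.269% of all genes. No member had an unadjusted p under 0.05 there.

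Collagen chains are hydroxylated, folded, exported, trimmed and cross-linked by other proteins, of which 31 of 35 listed were measured and 29 tested. From tissue to progenitor cells 12 of them rose and 9 fell, against 36.9% and 35.8% of all tested genes. From progenitor cells to organoids 5 rose and 16 fell, against 28.0% and 44.3%. Over all members measured the medians were -0.236 and -0.591, beside -0.0516 and -0.228 over all genes. Of the 5 cross-linking enzymes 4 rose and 0 fell at the first step, among them the lysyl oxidase Lox (3.08 ± 0.21, adjusted p = 6.11e-08) and the peroxidase Pxdn, which cross-links type IV collagen (2.91 ± 0.12). Lox read 6.08 and 6.22 in cortex tissue, 7.11 and 6.43 in medulla tissue, 9.46 and 9.72 in cortex progenitor cells, 9.88 and 9.93 in medulla progenitor cells, 8.52 and 7.71 in cortex organoids and 10.87 and 10.30 in medulla organoids. Tissue lay below all cultures, and in organoids medulla lay above cortex.

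The largest other changes of the list at the first step were falls of P3h2, a prolyl hydroxylase (by 3.87 ± 0.14), and of Colgalt2, a collagen galactosyltransferase (by 3.49 ± 0.37), while Colgalt1 rose by 2.08 ± 0.13. From progenitor cells to organoids Creb3l1, a transcription factor of the secretory pathway, rose by 3.32 ± 0.14, Mia2, which helps export large cargo, rose by 3.01 ± 0.25, and Bmp1, the protease that trims fibrillar propeptides, fell by 2.65 ± 0.23. Serpinh1, the collagen chaperone, rose by 1.30 ± 0.14 and then fell by 0.51 ± 0.14. In organoids 9 of the 29 were higher and 2 lower in medulla, against 7.95% and 10.0% of all genes, with P4ha3 (3.08), Pcolce (2.59) and Lox (2.40) the largest. The region difference of the step from progenitor cells to organoids passed for 5 of the 29, against 4.09% of all genes, which were P4ha3 (2.71), Pcolce (2.46), Pcolce2 (-2.21), Lox (2.09) and Creb3l1 (-1.25). Only medulla organoids (6.59 and 7.77) took P4ha3 past the brightness filter. Its differences of 3.08 and 2.71 were both measured towards that group, so they carry little weight.

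Cells bind collagen through integrins and discoidin receptors, of which 9 of 10 listed were measured and 7 tested. From tissue to progenitor cells 2 rose and 2 fell (all genes 36.9% and 35.8%), and from there to organoids 2 rose and 3 fell (28.0% and 44.3%). Itga2, the chain of the integrin that binds type I collagen on epithelium, read 4.07 and 2.60 in cortex tissue, 2.33 and 4.52 in medulla tissue, 6.96 and 7.87 in cortex progenitor cells, 7.39 and 7.60 in medulla progenitor cells, 9.63 and 10.16 in cortex organoids and 9.21 and 8.16 in medulla organoids. Its stages did not overlap and rose in that order, by 2.83 ± 0.32 and 1.75 ± 0.32. Its partner Itgb1 rose by 1.65 ± 0.10 and then fell by 1.44 ± 0.10. Itga1, for type IV collagen, fell by 0.83 ± 0.13 and then rose by 1.67 ± 0.13, and Ddr1, the epithelial discoidin receptor, fell by 1.35 ± 0.14 at the second step. Gp6, the platelet collagen receptor, fell by 2.14 ± 0.40 there but was dim. It read 5.51 to 6.08 in progenitor cells, where array medians ran from 5.86 to 6.05. Only cortex progenitor cells took it past the brightness filter, and the fall was measured from that stage, so it carries little weight. In organoids 1 of the 7 receptors differed by region (all genes 7.95% higher, 10.0% lower), the mesenchymal discoidin receptor Ddr2, 1.39 ± 0.37 higher in medulla (adjusted p = 0.023).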

How the data were processed

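RNA from 12 samples was hybridised to Affymetrix mouse arrays. Per the submitters' processing notes the authors used MAS5 (version not stated), and the deposited values are log2 signals per probe set, which the values show to be scaled to a trimmed mean of 500 per array. Fold changes are not the authors': deposited log2 values were unlogged, 15.2 (the 25th percentile of all values) was added and log2 retaken. Genes were named from the platform annotation, and 34945 of 45101 probe sets had 1 symbol, 932 several and 9211 none. A gene was represented by its probe set with the highest mean and tested if both arrays of some group had it above their medians. Col9a1 passed this filter only through cortex progenitor cells and Col11a1 only through medulla progenitor cells. Col8a1, Col14a1, Col15a1, Col23a1 and Col26a1 passed it only through tissue. Limma 3.58.1 in R 4.3.3 was fitted to all arrays with 6 group means (6 residual degrees of freedom), empirical Bayes variances with a trend and Benjamini-Hochberg adjustment over 12992 genes. It was tested on simulated data. The number of arrays limits the precision.

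No pairing of samples by equal replicate numbers was detected: their deviations from the group means correlated by -0.14 to 0.056 between groups. With so few arrays per group these values cannot exclude pairing. The labels do not say whether equal numbers share an animal or a culture. Members and lists were chosen with earlier results of these data known. Every member is named or counted. Values on every array are given for up to 8 members per comparison with the largest passing, non-overlapping differences, for their partner chains and for type I, III, IV, VI and XVIII genes, and 3 genes per comparison are named from the other lists. Col6a6, Col21a1, Col28a1 and the listed genes Fkbp10, Adamts2, Adamts14, Loxl2, Itga11 and Fbn1 were not analysed here.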

Additional observations from a re-analysis of the deposited data

Results flagged for a closer look

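The change from progenitor cells to organoids differed between cortex and medulla for 7 collagen genes by limma's test of the difference itself, which is medulla step minus cortex step on the log2 scale. The values were 3.33 for Col6a1, 3.28 for Col6a2, 3.20 for Col6a3, 2.32 for Col4a1, 1.94 for Col3a1, 1.87 for Col5a1 and 1.71 for Col4a2.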

How the results depend on the processing

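Of 162 recomputed counts of passing members, 153 stayed within 1.5 times the value reported. A mean brightness filter gave 14 members (2 higher, 12 lower) for organoids against tissue, with fewer genes tested. A fit of the 2 compared groups alone gave 3 for medulla against cortex in progenitor cells and 9 in organoids (13 with all arrays), where Col4a3, Col5a2, Col5a3 and Col11a1 were lost, and the cause was not tested. Leaving out 1 array gave 3 to 11 for the region difference of the step from progenitor cells to organoids. With the replicate number as a block the counts were 21, 18, 23, 0, 0, 13, 18, 14, 0 and 7 for the 10 comparisons, as without it, and no member's call changed. Crossed numbers, tried after seeing the data, gave 0 for region in tissue and in progenitor cells. Scaling to the 75th percentile shifted the median of all tested genes by -0.22 for organoids against tissue, -0.12 for organoids against progenitor cells (-0.12 in cortex, -0.11 in medulla), and no called member lost its call.

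Among differences that passed on the main probe sets, every change of sign came from another probe set of the gene, and the cause was not tested. Region differences of the step that did not pass could change sign when 1 array was left out, as for Col27a1 (-0.64 to 1.18). Listed here are the changes of sign from another probe set, some of them passing only there. From tissue to progenitor cells these were Col14a1 (0.0187) and Col26a1 (0.149). From progenitor cells to organoids they were Col1a1 (-0.26), Col5a3 (0.49), Col12a1 (0.0751 and 0.22), Col11a1 (-0.99, adjusted p = 0.023) and Col23a1 (0.97 and 0.81, adjusted p = 0.0025 and 0.028), the last 2 genes passing only on these probe sets. Within cortex they were Col1a1 (-0.75), Col5a3 (0.0124) and Col12a1 (0.19 and 0.16), and within medulla Col12a1 (0.27), Col11a1 (-1.50) and Col27a1 (0.11). For organoids against tissue they were Col1a2 (0.11), Col5a1 (-0.0128), Col5a3 (0.57) and Col14a1 (0.21). For medulla against cortex organoids they were Col1a2 (-0.0879), Col4a4 (-1.67) and Col5a1 (-0.16), and for the region difference of the step Col4a4 (-1.90) and Col5a1 (-0.92 and -0.12).

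Detection calls were not used, so a dim probe set has no shown absence. Col5a1, Col3a1, Col1a1, Col27a1, Col4a3, Col4a4 and Col4a5 give different pictures by probe set. The pairings of probe sets were chosen after seeing the data.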
